A study of Mus musculus with 6 samples.

Results

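The genes described here encode the subunits of the respiratory chain and of ATP synthase, which stand in the inner mitochondrial membrane and are written by 2 genomes. The family was chosen with earlier results of these data known, and its members were then taken by gene symbol. Mitochondrial DNA carries 13 of them (mt-Nd, mt-Co, mt-Cytb and mt-Atp genes). The nucleus carries 82 (Ndufa, Ndufb, Ndufc, Ndufs, Ndufv, Sdha to Sdhd, Uqc, Cox4 to Cox8 and Atp5 genes). Together they are 95 of the 15944 genes in the table. The table names the 13 without their prefix (ND1, COX1, CYTB), so they were found by Ensembl identifier in GENCODE M21, and the 82 by the symbol in the table. Of the 82, Uqcc1, Uqcc2 and Uqcc3 are assembly factors and Ndufb4c is annotated as a processed pseudogene, all of whose 31-base windows also occur in Ndufb4.

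RNA was sequenced in bulk from spleen regulatory T cells, or Tregs, the Foxp3-expressing lymphocytes that restrain immune responses, of C57BL/6 mice carrying a red reporter of Foxp3 and a green reporter of RORγt, a transcription factor of type 17 immunity. All sorted cells were CD3+ CD4+ and positive for the Foxp3 reporter. The first group (3 libraries) was positive for the RORγt reporter, without a gate on CCR6, and the second (3 libraries) was negative for it and positive for the chemokine receptor CCR6. The series text describes the cells as naïve and gives 500000 sorted cells, without saying per library. The labels call these groups biTreg and Treg17. Ccr6 RNA stood at 698 to 900 normalized counts in the RORγt+ libraries and at 112 to 148 in the libraries sorted for surface CCR6. Nothing in the labels says that libraries came from different mice, and p-values may therefore reflect technical spread alone.

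The respiratory chain passes electrons from NADH and succinate to oxygen and pumps protons across the inner membrane, and ATP synthase uses the returning protons to make ATP. Complex I takes electrons from NADH, complex II from succinate, complex III passes them to cytochrome c, complex IV gives them to oxygen, and complex V is ATP synthase. The mitochondrial genome encodes core membrane subunits of every complex but complex II, and its genes are transcribed together as long precursors that are cut apart, often at the transfer RNAs between them. Nuclear subunits are transcribed from separate promoters, translated in the cytosol and imported. Tregs are known to rely on oxidative phosphorylation more than conventional effector T cells do.

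Values are normalized counts, which the authors scaled between libraries. The column totals lay between 11325900 and 11890800, and steps between low values gave an estimated depth of 9215100 (RORγt+ replicate 3) to 14483300 reads. RORγt+ replicate 3 correlated with the rest at 0.932 to 0.938 over all genes on the log2 scale, while correlations among the rest reached 0.967, and it listed 1247 genes at 0 against 438 to 638. Markers of T cells and Tregs (Foxp3, Cd4, Cd3e, Cd3d, Il2ra, Ctla4 and Ikzf2, 7 of 7 in the table) summed to 44500 to 49529 normalized counts. Their single values are not given here. B cell markers summed to 7126 to 10786, and those of NK and CD8 T cells to at most 183. Myeloid markers (3 of 5 in the table) summed to 41 to 136 in RORγt+ and 19.8 to 43 in RORγt− libraries. Red cell markers summed to 198 to 1219 in RORγt+ and 75.7 to 6159 in RORγt− libraries. The part of other cells in the results was not tested.

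Sequences matter here because reads of mitochondrial genes can fit other gene models. The nuclear genome holds copies of mitochondrial DNA, and the most abundant such copy in the table was Gm29216, an unprocessed pseudogene at chr1:24615706-24616197 (GRCm38, minus strand). Its 492 bases match the last 492 bases of mt-Co1 (chrM:5328-6872), positions 1054 to 1545 counted from 1 at the first base of mt-Co1, with 486 identical, or 98.78%. The first 63 bases of that stretch are shown because they hold all 6 differences, in capitals, and every later base is identical. The differences, with the mt-Co1 base first, are T1056A, C1057T, A1059G, A1060G, C1062A and A1066T.
mt-Co1: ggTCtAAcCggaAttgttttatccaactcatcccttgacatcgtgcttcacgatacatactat
Gm29216: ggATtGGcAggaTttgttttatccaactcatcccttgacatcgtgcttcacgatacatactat

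Gm29216 was listed at 34624, 27515 and 28138 normalized counts in RORγt+ replicates 1 to 3 and at 36767, 44052 and 44068 in RORγt− replicates 1 to 3. That was 21.3% to 25.0% of the mt-Co1 value of the same library, and its log2 fold change was −0.47 ± 0.15 (SE). Other copies carried less: Gm13340, which shares 45.2% of the mt-Co1 windows, was listed at 1272 to 2411 normalized counts, and Gm13341, which shares 47.1% of the mt-Co2 windows, at 662 to 1171. In 7 of the 13 mitochondrial genes over 60% of windows occur in some other annotated transcript, so the split of reads between these genes and their copies is uncertain. No shared window was found for mt-Nd1, and 6.55% to 16.8% of windows were shared in mt-Nd2, mt-Nd5, mt-Nd6, mt-Atp8 and mt-Cytb.

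Mitochondrial genes also overlap each other, and the overlaps are shown because reads within them fit both genes. Capitals mark the bases shared by mt-Atp8 and mt-Atp6 (43 bases, chrM:7927-7969), by mt-Nd4l and mt-Nd4 (7 bases, chrM:10167-10173) and by mt-Nd5 and, on the opposite strand, mt-Nd6 (14 bases, chrM:13552-13565). All 3 are written on the plus strand, from transcripts of GENCODE M21.
mt-Atp8 to mt-Atp6: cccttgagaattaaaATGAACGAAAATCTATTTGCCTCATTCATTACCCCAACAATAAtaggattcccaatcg
mt-Nd4l to mt-Nd4: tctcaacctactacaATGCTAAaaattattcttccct
mt-Nd5 to mt-Nd6: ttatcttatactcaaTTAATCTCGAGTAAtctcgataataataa

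All 13 mitochondrially encoded subunits averaged lower in RORγt+ than in CCR6+ RORγt− Tregs, with log2 fold changes of −0.26 to −0.86, and none passed the test over all genes. The median log2 fold change, RORγt+ minus RORγt−, was −0.52 over the 13, against −0.011 over all 15944 genes. Limma with Benjamini-Hochberg adjustment called 0 of the 13 (smallest adjusted p = 0.0914), where it called 0.564% of all genes (0.32% higher and 0.245% lower). At an unadjusted p under 0.05 there were 9 of the 13, all lower, against 6.12% of all genes lower at that level. There were 5 without RORγt− replicate 2 or without RORγt− replicate 3, fits for which the share of all genes is not given here. The groups did not overlap in 8 of the 13, each with every RORγt+ library below every RORγt− library, against 9.81% of all genes and 10.4% of those with a mean at least that of mt-Nd6. Without RORγt+ replicate 3 the count was also 8, against 18.4% of all genes. The 12 genes on the plus strand are cut from shared precursors, and mt-Nd6 is read from the other strand of the same genome. The 13 are therefore not taken as independent replicates, and these counts are not 13 separate results. All 13 fold changes stayed below 0 in each of the 16 alternatives, and without RORγt+ replicate 3 the median was −0.44. In bulk RNA, fewer cells with a high level and less of the RNA per cell cannot be told apart.

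**Figure D1:**
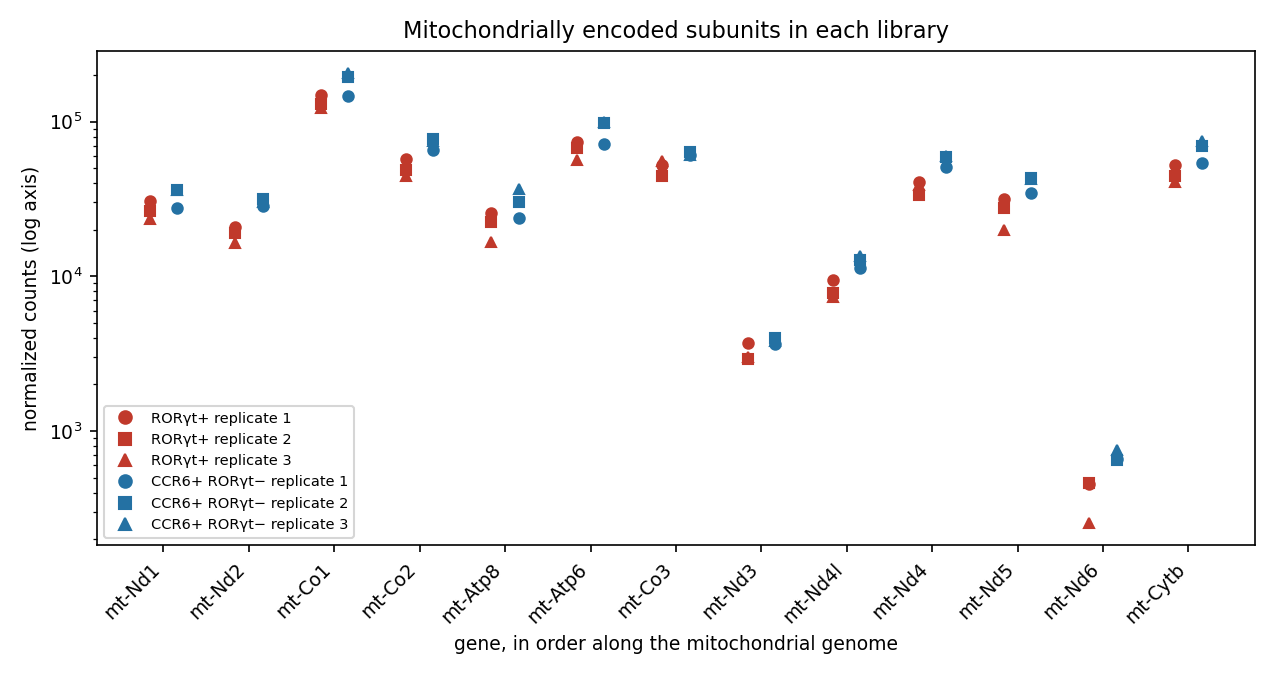
Normalized counts (log axis) of the 13 mitochondrially encoded subunits, in order along the mitochondrial genome, with 1 point per library, red for RORγt+ and blue for CCR6+ RORγt− Tregs. The groups do not overlap in 8 of the 13 genes, and in the other 5 the overlap is between RORγt− replicate 1 and RORγt+ replicate 1 only.

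Complex I holds 7 of the 13, all of them membrane subunits of its proton-pumping arm. mt-Nd2 (chrM:3914-4951) had the smallest p of all 95 genes, at 20806, 19082 and 16467 normalized counts in RORγt+ replicates 1 to 3 and 28342, 31421 and 30124 in RORγt− replicates 1 to 3. Every RORγt+ library lay below every RORγt− library, with a log2 fold change of −0.68 ± 0.13 (SE, limma adjusted p = 0.0914). Without RORγt+ replicate 3 it was called, at −0.59 ± 0.086 (limma adjusted p = 0.0417), in a fit that called 1.09% of all genes (0.558% lower). With weights per library, which gave that library the lowest weight, mt-Nd2, mt-Nd4 and mt-Nd4l were called lower, as were 1.18% of all genes.

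mt-Nd4 (chrM:10167-11544) stood at 40690, 33650 and 38906 normalized counts in RORγt+ replicates and 50738, 58785 and 59567 in RORγt− replicates, without overlap (log2 fold change −0.58 ± 0.13 SE, limma adjusted p = 0.165). Its overlapping partner mt-Nd4l stood at 9493, 7747 and 7397 against 11330, 12789 and 13470 (−0.61 ± 0.14, limma adjusted p = 0.151). These overlapping genes are known to share 1 messenger RNA, and neither had a RORγt+ library above a RORγt− one. For mt-Nd5 (chrM:11742-13565) the values were 31546, 27607 and 19916 against 34811, 43210 and 42712 (−0.63 ± 0.19, limma adjusted p = 0.295), again without overlap.

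mt-Nd6 (chrM:13552-14070) is the 1 member of the 13 read from the minus strand, and was the least abundant of them. It was listed at 456, 462 and 256 normalized counts in RORγt+ replicates 1 to 3 and at 663, 650 and 749 in RORγt− replicates 1 to 3. Its log2 fold change of −0.86 ± 0.25 (SE, limma adjusted p = 0.255) was the lowest of the 95, and was −0.58 without RORγt+ replicate 3, the library with the lowest value. Whether the libraries kept strand is not given in the sources used here, so reads of mt-Nd6 and of the opposite strand cannot be told apart.

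The complex I subunits mt-Nd1 and mt-Nd3 had smaller differences. mt-Nd1 (chrM:2751-3707), the first coding gene after the ribosomal RNAs, stood at 30558, 26371 and 23366 against 27775, 35901 and 35952 normalized counts (log2 fold change −0.31 ± 0.16 SE, limma adjusted p = 0.568). For mt-Nd3 the values were 3713, 2900 and 3013 against 3655, 3996 and 3826 (−0.26 ± 0.13, limma adjusted p = 0.55). In both genes RORγt+ replicate 1 lay above RORγt− replicate 1, and the groups overlapped.

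Complex III has a single mitochondrial subunit, mt-Cytb (chrM:14145-15288), which carries the haem groups of its membrane core. Its values were 52571, 44546 and 40953 normalized counts in RORγt+ replicates and 54194, 69359 and 75109 in RORγt− replicates, without overlap (log2 fold change −0.52 ± 0.17 SE, limma adjusted p = 0.323). RORγt− replicate 1 lay closest to the RORγt+ libraries.

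Complex IV takes its 3 catalytic core subunits from mitochondrial DNA. mt-Co1, which holds the site where oxygen is reduced, averaged the most counts of all 95 genes, with 149381, 129373 and 121864 normalized counts in RORγt+ replicates and 147293, 194536 and 205478 in RORγt− replicates. The groups overlapped by RORγt− replicate 1, and the log2 fold change was −0.44 ± 0.17 (SE, limma adjusted p = 0.42). mt-Co2, which accepts electrons from cytochrome c, stood at 57033, 48437 and 44663 against 65081, 76760 and 74714, without overlap (−0.53 ± 0.14, limma adjusted p = 0.231). For mt-Co3 the values were 52247, 44518 and 56025 against 60933, 63315 and 60610 (−0.28 ± 0.13, limma adjusted p = 0.508). Here too no RORγt+ library reached a RORγt− one, and RORγt+ replicate 3 was the highest of its group, unlike in 10 of the 13 genes, where it was the lowest of all 6 libraries.

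Complex V takes 2 membrane subunits from mitochondrial DNA. mt-Atp6 (chrM:7927-8607), which forms the proton path together with the ring of c subunits, stood at 73402, 67500 and 56812 normalized counts in RORγt+ replicates and 71774, 97746 and 98792 in RORγt− replicates (log2 fold change −0.43 ± 0.18 SE, limma adjusted p = 0.435). mt-Atp8, a small membrane subunit, stood at 25530, 22372 and 16638 against 23790, 30118 and 36613 (−0.49 ± 0.21, limma adjusted p = 0.474, and −0.31 without RORγt+ replicate 3). In both, RORγt− replicate 1 lay inside the RORγt+ range.

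The 82 nuclear-encoded members had a small positive median fold change, which fell to near 0 without RORγt+ replicate 3. Limma called 0 of them (smallest adjusted p = 0.197, for Ndufa10), and 4 had an unadjusted p under 0.05, against 10.9% of all genes. Of these, Atp5md and Uqcrfs1 were higher in RORγt+ libraries (4.8% of all genes) and Ndufa10 and Cox7b lower. That count was 2 without RORγt+ replicate 1, 9 without RORγt+ replicate 2, 7 without RORγt+ replicate 3 (17.7% of all genes) and 1 without RORγt− replicate 1 or 3. It was 2 with upper-quartile scaling and 15 with the trend on GC content and length removed. Among these alternatives the share of all genes is given only without RORγt+ replicate 3. The other counts can therefore not be read as a change among members. The 82 had a median log2 fold change of 0.13, with 62 above 0 and 20 below. Without RORγt+ replicate 3 the median was 0.00065, with 42 above and 40 below, so the small positive median rested on that library. RORγt+ replicate 3 was the highest of the 6 libraries in 61 of the 82 (74.4%), against 27.9% of all genes, and the lowest in 10 of the 13 mitochondrial genes (76.9%), against 29.1% of all genes. The median of the 82 in each library, as a deviation from the gene's mean on the log2 scale, was 0.26 in RORγt+ replicate 3 and between −0.11 and −0.015 in the other 5.

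**Figure D2:**
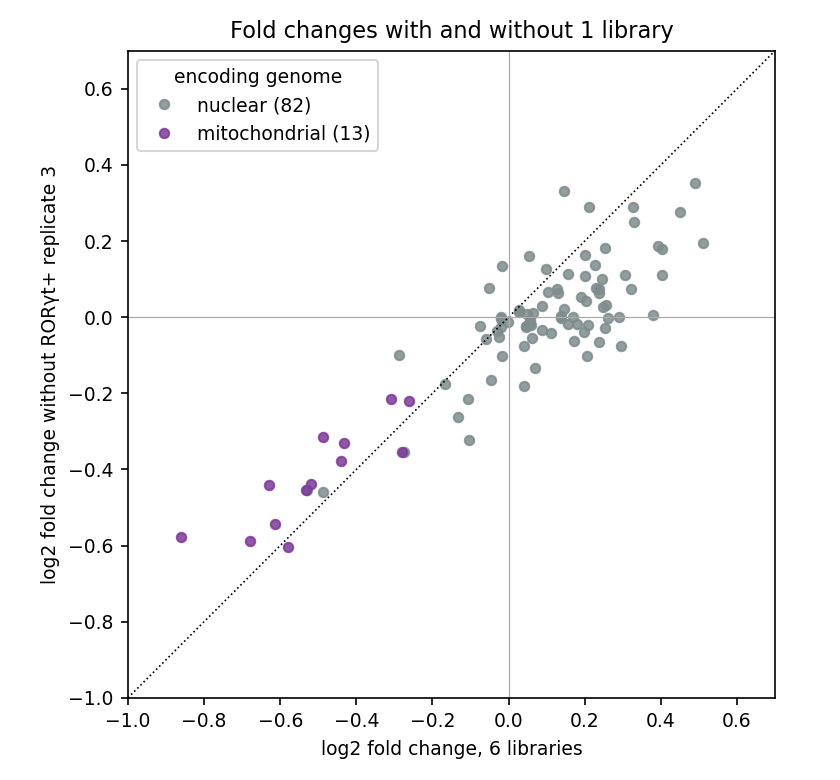
Log2 fold changes (RORγt+ minus CCR6+ RORγt−) of the 82 nuclear and 13 mitochondrial members from all 6 libraries (x axis) and without RORγt+ replicate 3 (y axis), with the dotted line where both are equal. The nuclear members centre on 0.13 along the x axis and on 0.00065 along the y axis, while all 13 mitochondrial members stay below 0 on both.

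GC content differed between the genomes and moved with RORγt+ replicate 3. Transcripts of the 13 mitochondrial genes held 31.9% to 41.1% GC, and those of the 82 nuclear members 42.0% to 61.1%. Across 12725 genes with a mean of at least 10, the log2 difference of RORγt+ replicate 3 from the mean of replicates 1 and 2 had a Spearman rho of 0.52 with GC content, and 0.30 across the 82 nuclear members. These are correlations across genes within the same libraries, and genes are not independent replicates. With the trend on GC content and transcript length removed, the median was −0.53 over the mitochondrial and 0.19 over the nuclear members. In that fit 6 of the 13 mitochondrial genes had an unadjusted p under 0.05, against 9 in the main fit. The share of all genes at that level is not given here. The log2 fold change of mt-Nd2 was −0.82 there (limma adjusted p = 0.351).

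The contrast of the genomes does not depend on how libraries were scaled when it is taken as a ratio within a library. Summed over members, mitochondrial genes held 7.33, 6.64 and 4.79 times the normalized counts of nuclear members in RORγt+ replicates 1 to 3 and 7.63, 9.90 and 10.5 times in RORγt− replicates 1 to 3. The groups did not overlap, although RORγt+ replicate 1 and RORγt− replicate 1 lay close together. The means were 6.25 ± 1.31 and 9.33 ± 1.5 (SD, n = 3 each), and 6.98 for the RORγt+ group without replicate 3. The mitochondrial sums were 489422 ± 52185 against 678894 ± 85851 normalized counts, and the nuclear sums 79764 ± 11682 against 73043 ± 2820 (SD, n = 3). No p is given for these sums, because the genes were chosen with earlier results of these data known.

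**Figure D3:**
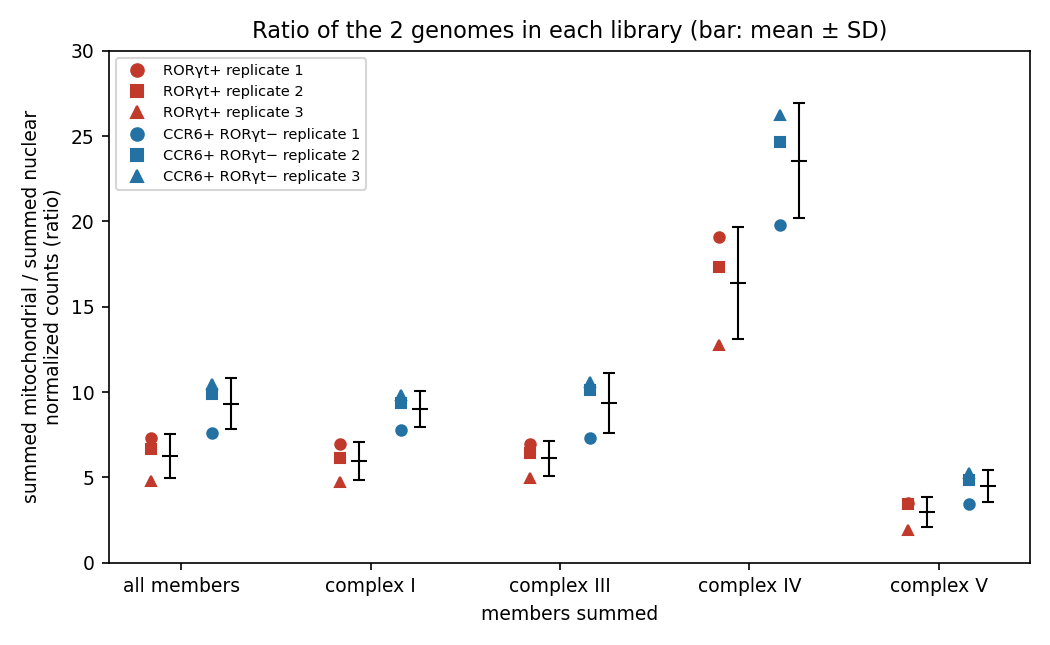
Ratio of summed mitochondrial to summed nuclear normalized counts, for all members and by complex, with 1 point per library (red RORγt+, blue CCR6+ RORγt−) and the mean ± SD of each group in black. Over all members the RORγt+ libraries lie between 4.79 and 7.33 and the RORγt− libraries between 7.63 and 10.5.

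The ratio was lower in RORγt+ libraries within each complex that draws on both genomes. It averaged 5.96 ± 1.12 against 9.02 ± 1.07 for complex I (SD, n = 3), and 6.12 ± 1.02 against 9.34 ± 1.75 for complex III. For complex IV it averaged 16.4 ± 3.28 against 23.6 ± 3.36, and for complex V 2.97 ± 0.893 against 4.52 ± 0.940. The groups did not overlap in complexes I, III and IV. In complex V they overlapped, since RORγt− replicate 1 at 3.46 lay below RORγt+ replicate 1 at 3.53.

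Per length, mitochondrial genes were the more abundant by far. Their level, the mean over the 6 libraries divided by transcript length, ran from 1039 normalized counts per kb in mt-Nd6 to 126685 in mt-Atp8, with a median of 34919. The nuclear members ran from 10.1 in Cox6b2 to 4433 in Uqcrh, with a median of 795 normalized counts per kb. Each of the 12 plus-strand mitochondrial genes stood above the highest nuclear member, and mt-Nd6 stood within the nuclear range. Among the 12, the complex IV and V genes mt-Atp8, mt-Atp6, mt-Co1, mt-Co2 and mt-Co3 (71779 to 126685) stood above mt-Cytb at 49058 and above the complex I genes (10107 to 34919). The short mt-Atp8 and mt-Nd4l and the genes with nuclear copies are the least certain in this order.

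**Figure D4:**
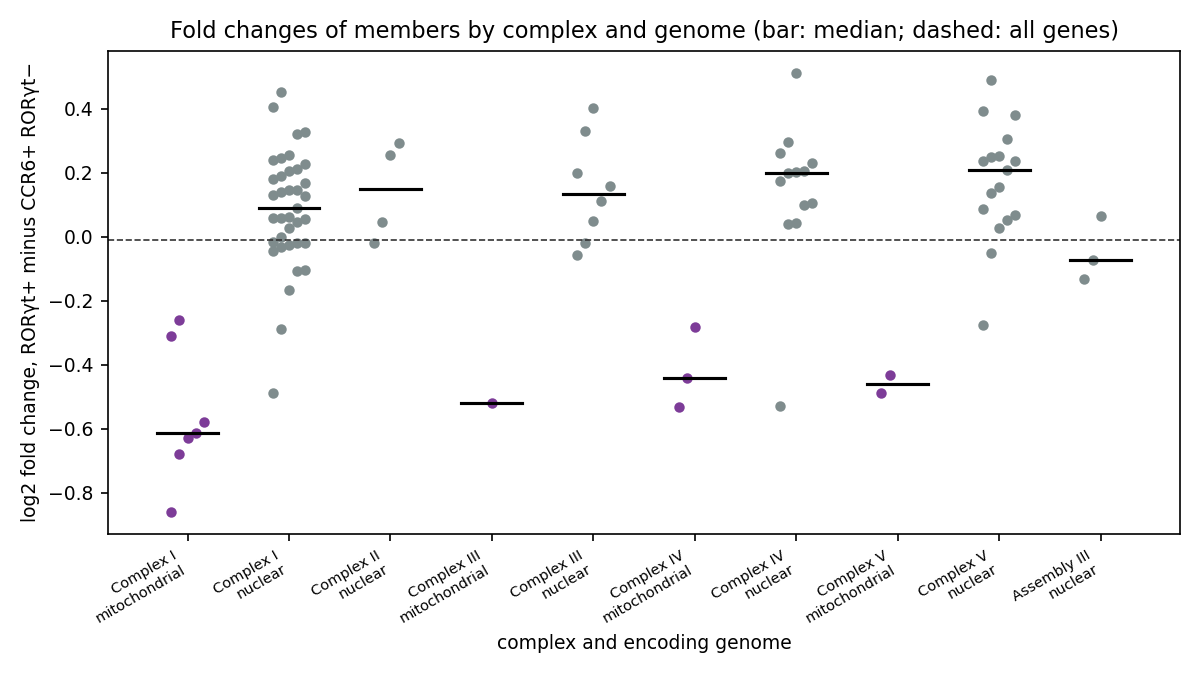
Log2 fold changes (RORγt+ minus CCR6+ RORγt−) of all 95 members by complex and encoding genome, 1 point per gene, with the median of each set as a black bar and the median of all genes (−0.011) as a dashed line. Mitochondrial sets have medians of −0.61, −0.52, −0.44 and −0.46 in complexes I, III, IV and V, below the nuclear medians of 0.089, 0.13, 0.20 and 0.21 of the same complexes.

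Nuclear complex I subunits numbered 37 here, with Ndufb4c among them, and their median log2 fold change was 0.089 (−0.0069 without RORγt+ replicate 3). Ndufa10 (chr1:92439010-92473860), an accessory subunit of the membrane arm, was the lowest of them and had 0.0598% of its windows in another gene. It stood at 777, 826 and 757 normalized counts in RORγt+ replicates and 1093, 1179 and 1040 in RORγt− replicates, without overlap (log2 fold change −0.49 ± 0.12 SE, limma adjusted p = 0.197). The value without RORγt+ replicate 3 was −0.46, so this nuclear gene differed by about as much as the mitochondrial ones. Ndufa11, another membrane arm subunit, was the highest of the 37, at 348, 295 and 461 against 272, 269 and 253 (0.45 ± 0.20, limma adjusted p = 0.472, and 0.28 without RORγt+ replicate 3).

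Ndufv1 and Ndufs1 belong to the catalytic arm of complex I, which carries electrons from NADH towards ubiquinone, and neither separated the groups. The flavin-bearing Ndufv1 stood at 586, 583 and 748 against 705, 598 and 667 normalized counts (log2 fold change −0.046 ± 0.16 SE, and −0.16 without RORγt+ replicate 3). Ndufs1, which holds iron-sulfur clusters, stood at 912, 1093 and 847 against 799, 849 and 801 (0.21 ± 0.14, limma adjusted p = 0.675, and 0.29 without RORγt+ replicate 3). Its overlap was between RORγt+ replicate 3 and RORγt− replicate 2 only. The groups overlapped in both genes, and the sign of Ndufv1 turned when RORγt+ replicate 1, RORγt+ replicate 2 or RORγt− replicate 1 was left out.

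Complex II is wholly nuclear, and none of its 4 subunits separated the groups. Sdha, the flavoprotein that oxidises succinate, stood at 3087, 3759 and 3311 normalized counts in RORγt+ replicates and 4285, 2944 and 3170 in RORγt− replicates (log2 fold change −0.019 ± 0.17 SE). Sdhb, its iron-sulfur partner, stood at 939, 922 and 1072 against 956, 993 and 888 (0.046 ± 0.13), with a sign that turned without RORγt+ replicate 3. Sdhc, a membrane anchor, varied most, at 579, 366 and 843 against 535, 438 and 415 (0.29 ± 0.30), and its fold change was 0.00030 without RORγt+ replicate 3.

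In complex III, Uqcrfs1 (chr13:30540308-30545362), the Rieske iron-sulfur protein, stood at 635, 642 and 751 against 515, 546 and 549 normalized counts. Every RORγt+ library was above every RORγt− library, as in 8.31% of all genes, with a log2 fold change of 0.33 ± 0.14 (SE, limma adjusted p = 0.437, and 0.25 without RORγt+ replicate 3). Its complex partner from the other genome, mt-Cytb, lay in the opposite direction. Uqcrc1, a core subunit, was level at 1583, 1439 and 1640 against 1626, 1361 and 1527 (0.048 ± 0.13, and 0.0082 without RORγt+ replicate 3). Uqcrq had the highest fold change of the complex, 0.40 ± 0.26, from a single high library (280, 306 and 538 against 245, 291 and 281), and 0.11 without it. Uqcrh, the hinge protein, had the lowest, at 2246, 1886 and 2054 against 2284, 2032 and 2118 (−0.058 ± 0.12). The assembly factors Uqcc1, Uqcc2 and Uqcc3 had log2 fold changes of −0.13, 0.064 and −0.074, and of −0.26, 0.011 and −0.023 without RORγt+ replicate 3.

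**Figure D5:**
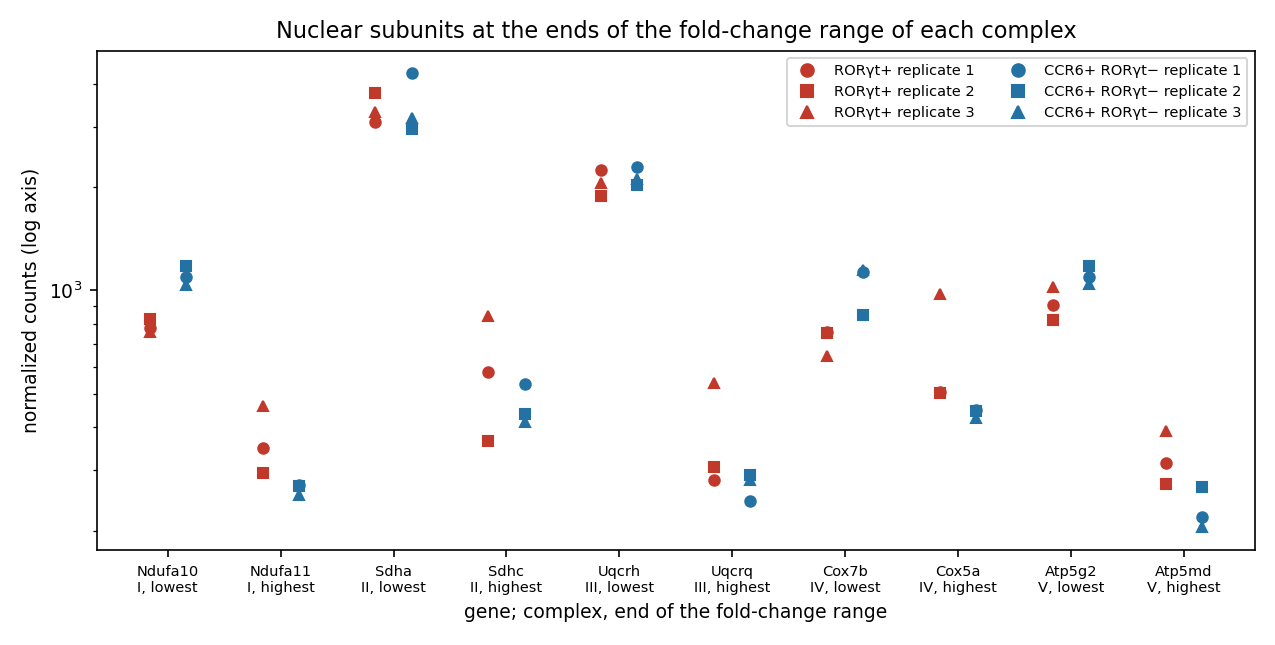
Normalized counts (log axis) of the nuclear subunits with the lowest and the highest log2 fold change in each complex, with 1 point per library, red for RORγt+ and blue for CCR6+ RORγt−. Ndufa10, Cox7b and Atp5g2 have every RORγt+ point below every RORγt− point. In Ndufa11, Sdhc, Uqcrq, Cox5a and Atp5md, the highest of each complex, RORγt+ replicate 3 (red triangle) stands above the other 5 libraries.

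Among complex IV subunits, Cox7b (chrX:106015700-106022450), a small accessory subunit, was lower in RORγt+ libraries, at 759, 750 and 645 against 1131, 851 and 1148 normalized counts. Its groups did not overlap, and its log2 fold change of −0.53 ± 0.16 (SE, limma adjusted p = 0.296) was the lowest of the 82 nuclear members. Cox5a, at the other end, stood at 507, 503 and 974 against 450, 447 and 425 (0.51 ± 0.26, limma adjusted p = 0.561). RORγt+ replicate 3 carried most of that difference, which was 0.20 without it. Cox5b stood at 1196, 1277 and 1337 against 1207, 1294 and 1052 (0.10 ± 0.13, and 0.067 without it).

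Several complex IV subunits come in tissue isoforms. Those in the table were the widely expressed forms: Cox4i1 at 2569, 2445 and 3503 against 2462, 2414 and 2424 normalized counts (log2 fold change 0.20 ± 0.16 SE, and 0.042 without RORγt+ replicate 3), Cox6a1, Cox6b1, Cox7a2 and Cox8a. The last 4 averaged 355 to 899 normalized counts in either group, with log2 fold changes of 0.17, 0.040, 0.26 and 0.20, and of −0.061, −0.18, −0.00088 and −0.039 without RORγt+ replicate 3. Cox6b2, known from testis, averaged 4.40 normalized counts over the 6 libraries, a few reads each (0.30, and −0.076 without RORγt+ replicate 3). Cox7a2l, which acts in joining complexes III and IV into supercomplexes, was the third most abundant nuclear member in counts, at 3774, 3543 and 4656 against 4002, 3918 and 3640 (0.042 ± 0.14, and −0.074 without RORγt+ replicate 3). Ndufa4, named for complex I but counted here with complex IV, stood at 740, 718 and 1001 against 726, 713 and 638 (0.23 ± 0.17, and 0.077 without RORγt+ replicate 3). Cox4i2, Cox6a2, Cox7a1, Cox8b, Cox8c and Ndufa4l2 were not among the 82 members found by symbol in the table, and so were not analysed here.

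ATP synthase supplied 17 nuclear members, with a median log2 fold change of 0.21 (0.028 without RORγt+ replicate 3). The catalytic β subunit Atp5b was the most abundant nuclear member in counts, at 6022, 5911 and 9430 normalized counts in RORγt+ replicates and 6433, 5396 and 5772 in RORγt− replicates (0.25 ± 0.20 SE, limma adjusted p = 0.735). Its partner α subunit Atp5a1 stood at 4971, 4864 and 7935 against 5184, 5017 and 4783 (0.21 ± 0.20, limma adjusted p = 0.789). In both, RORγt+ replicate 3 was the highest library and the other 2 RORγt+ libraries lay inside the RORγt− range.

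The membrane ring of ATP synthase is built from a single protein that 3 nuclear genes encode, and their fold changes differed in sign. Atp5g2 stood at 909, 821 and 1021 against 1097, 1176 and 1046 normalized counts, without overlap (log2 fold change −0.27 ± 0.13 SE, limma adjusted p = 0.537, and −0.35 without RORγt+ replicate 3), although 40.2% of its windows occur in other genes. Atp5g1 stood at 388, 347 and 798 against 375, 413 and 317 (0.38), and Atp5g3 at 1368, 1129 and 1870 against 1162, 1270 and 1035 (0.31). Without RORγt+ replicate 3 the last 2 were 0.0058 and 0.11, and the differences between the 3 genes were not tested. Atp5md, a small accessory subunit, was the highest of the complex at 314, 273 and 389 against 219, 269 and 205 (0.49 ± 0.20, limma adjusted p = 0.435, and 0.35 without RORγt+ replicate 3).

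Groups did not overlap in 13 nuclear members, 9 with RORγt+ higher and 4 with RORγt+ lower, out of 82. Those higher made up 11% of the 82, against 8.31% of all genes, and those lower 4.88%, against 9.81%. Without RORγt+ replicate 3 there were 8 lower, 9.76% of the 82, against 18.4% of all genes. Those higher were Ndufa8, Ndufa11, Ndufb11, Ndufv3, Uqcrfs1, Cox5a, Cox6c, Atp5c1 and Atp5md, and those lower were Ndufa10, Ndufa12, Cox7b and Atp5g2.

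Nuclear members lie on 19 chromosomes, and promoters of respiratory genes are known for binding sites of the factors NRF1 and GABPA. RefSeq promoter windows (GRCm38.p6) were matched for 69 of the 82, and the 250 bases before the start were searched on both strands. The palindrome bound by NRF1, written in capitals in the lines that follow, was found in 4 of the 69 (5.8%), against 0.877% of 27025 genes. The GABPA core CCGGAAGT was found in 3 (4.35%, against 3.23%), and the longer YY1 core AAGATGGCG and the site of the ERR receptors, TCAAGGTCA, in 1 each (1.45%, against 0.71% and 0.422%). A match is a description of the letters only. The 27025 genes are not limited to genes measured here, and no share is given for genes of similar level or GC content. Whether members differ from such genes was therefore not tested, and the shares, which rest on 4 or fewer members each, are not read as enrichment. The 4 NRF1 matches are shown with the palindrome in capitals and 10 bases on each side. They are shown because they include the lowest nuclear fold change of complex V, Atp5g2 (−0.27), and the highest of complex I, Ndufa11 (0.45).
Atp5g2, chr15:102671070-102671099, minus strand: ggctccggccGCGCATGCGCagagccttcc
Atp5k, chr5:108434430-108434459, minus strand: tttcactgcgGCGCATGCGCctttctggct
Cox6a1, chr5:115349101-115349130, minus strand: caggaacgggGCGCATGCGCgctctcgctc
Ndufa11, chr17:56717692-56717721, plus strand: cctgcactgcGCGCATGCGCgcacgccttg
The other 2 had log2 fold changes of −0.052 for Atp5k, a small subunit of ATP synthase (0.076 without RORγt+ replicate 3), and 0.17 for Cox6a1.

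Genes that serve the chain outside the 95 members were read from 8 lists. Of the mitochondrial ribosomal and transfer RNAs, 0 of 24 were found in the table, so that list was not analysed here. Limma called no gene in any of the other 7, where 0.564% of all genes were called. Among 18 genes that transcribe, copy or package mitochondrial DNA the median log2 fold change was −0.091 (−0.048 without RORγt+ replicate 3). Tfam, which packages mitochondrial DNA and starts its transcription, averaged 721 against 859 normalized counts (−0.29 ± 0.22 SE, limma adjusted p = 0.719, and −0.043 without RORγt+ replicate 3), and the RNA polymerase Polrmt 551 against 427 (0.33 ± 0.31, limma adjusted p = 0.784, and 0.018 without it). The smallest p in that list belonged to Polg2, a subunit of the mitochondrial DNA polymerase, at 158, 136 and 134 against 94.9, 112 and 85.1 (0.55 ± 0.21, limma adjusted p = 0.399), and the next to Mterf2 (0.56 ± 0.33, and 0.85 without RORγt+ replicate 3).

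Processing and stability genes of mitochondrial RNA (22 in the table) had a median log2 fold change of 0.051 (0.016 without RORγt+ replicate 3). Prorp, the nuclease subunit that cuts transfer RNAs from the precursor, stood at 68.5, 82.7 and 103 against 53.7, 57.6 and 51.5 normalized counts, without overlap (0.61 ± 0.25 SE, limma adjusted p = 0.435). Rexo2, an exonuclease of short RNA, came next (0.31 ± 0.21), and Lrpprc, which stabilises mitochondrial messenger RNA, averaged 762 against 787 (−0.046 ± 0.16, and 0.0096 without RORγt+ replicate 3). Among 15 nuclear regulators of mitochondrial genes the median was −0.036, with 6 above 0 and 9 below, and its sign turned without RORγt+ replicate 3 (0.12, with 9 above and 6 below). The 2 with the smallest p were the nuclear receptor Esrra (0.41 ± 0.20, limma adjusted p = 0.534) and the lysosomal regulator Tfeb (0.35 ± 0.22), which were 0.24 and 0.16 without that library. Nrf1 averaged 694 against 810 (−0.23 ± 0.16, and −0.34 without RORγt+ replicate 3), and Gabpa 1007 against 964 (0.043 ± 0.25, and 0.29 without it).

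The 78 proteins of the mitochondrial ribosome, which translates the 13 messages, had a median log2 fold change of 0.027, with 45 above 0 and 33 below. Without RORγt+ replicate 3 the median was −0.054, with 30 above and 48 below. Mrpl38 stood at 123, 193 and 257 against 299, 410 and 326 normalized counts, without overlap (−0.90 ± 0.29 SE, limma adjusted p = 0.313), and Mrpl20 at 276, 285 and 365 against 197, 245 and 193 (0.54 ± 0.19, limma adjusted p = 0.365). The 49 assembly factors had a median of 0.024, with 29 above 0 and 20 below, and of −0.043, with 20 above and 29 below, without RORγt+ replicate 3. Among them the complex II factor Sdhaf1 stood at 331, 356 and 341 against 472, 542 and 453, without overlap (−0.51 ± 0.14, limma adjusted p = 0.249). Pet117, a complex IV factor, was listed at 0, 30.8 and 36.1 in RORγt+ libraries and at 0 in all 3 RORγt− libraries. Among 20 other genes of electron transfer the median was −0.047 (−0.16 without RORγt+ replicate 3). Cytochrome c (Cycs) averaged 183 against 184 (−0.064, and 0.24 without that library) and the complex III subunit Cyc1 654 against 656 (−0.030, and −0.21 without it). The choice by symbol leaves Cyc1 out of the members, so the complex III values above lack it. The glycerol phosphate dehydrogenase Gpd2, with the smallest p, stood at 233, 277 and 703 against 187, 197 and 199 (0.88 ± 0.39, limma adjusted p = 0.48, and 0.39 without RORγt+ replicate 3), followed by Coq5 of ubiquinone synthesis (−0.40 ± 0.20). The 32 import and carrier genes had a median of 0.083 (−0.032 without RORγt+ replicate 3), led by the outer membrane channel Vdac3 (0.55 ± 0.20, limma adjusted p = 0.383) and the import receptor Tomm22 (0.53 ± 0.22, limma adjusted p = 0.435), which were 0.33 and 0.31 without that library.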

How the data were processed

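The authors deposited 1 table of normalized counts, a signal scaled between libraries, for 15944 genes in 6 libraries. Salmon 1.2.0, DESeq2 with no version and GRCm38 are named, without role or order, in the submitters' processing notes. Annotation, library kit and strand setting: not given in the sources used here. Values were analysed as log2(value + 1), without a filter, with limma 3.58.1 in R 4.3.3 (group as the only term, mean-variance trend, two-sided), fitted on all genes with Benjamini-Hochberg adjustment and called at an adjusted p under 0.05. Fold changes are on that scale, RORγt+ minus RORγt−, and understate those of low genes. Gene positions, transcript lengths (median over coding transcripts) and GC content came from GENCODE M21. Windows of 31 bases were compared between all its transcripts, on both strands. Reads per library were estimated from the step between low values. The members and gene lists were chosen with earlier results of these data known. Genes were named by a rule: the mitochondrial members, core and isoform subunits, the ends of each complex, and the 2 smallest p of each list, of which 1 gene is not reported here. Others (Atp5g1, Atp5g3, Atp5k, Tfam, Polrmt, Lrpprc, Nrf1, Gabpa, Cycs, Cyc1, Ccr6 and those without overlap) were added after their values were seen. The script was tested on simulated data.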

Additional observations from a re-analysis of the deposited data

How the results depend on the processing

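All 13 mitochondrial fold changes kept their sign in the 208 values of the 16 alternatives. Calls among the 13 were 0 except for mt-Nd2 without RORγt+ replicate 3 (range 0 to 1 over the fits that left out a library) and 3 with array weights, which gave RORγt+ replicate 3 a weight of 0.199 (mt-Nd2, mt-Nd4 and mt-Nd4l, limma adjusted p = 0.0183, 0.0356 and 0.0481, in a fit that called 1.18% of all genes lower). The count over all genes, 90, was 4 without RORγt+ replicate 1 or 2, 174 without RORγt+ replicate 3, 8, 10 and 7 without RORγt− replicates 1, 2 and 3, 1 with a replicate block, 358 with array weights and 158 with GC content and length removed; the cause was not tested. Same-numbered libraries deviated with correlations of −0.105, −0.022 and −0.184. With 3 libraries per group these cannot settle whether the numbers pair them. The replicate block changed no call among members. It left 6 mitochondrial and 2 nuclear members at an unadjusted p under 0.05, and the share of all genes in that fit is not given here. The ratio of the genomes differed by −0.59 on the log2 scale, and by −0.73 to −0.41 without 1 library. No nuclear member was called in any fit. Of 30 named nuclear genes, 24 of 479 values changed sign. Library totals gave Sdha 0.0098. Array weights gave Sdha 0.035, Sdhb −0.014, Cox6a1 −0.023, Cox6b1 −0.14 and Cox7a2l −0.054. GC and length removed, Uqcrc1 was −0.022 and Uqcrh 0.072. Without 1 library, the log2 fold change of Ndufv1 ranged from −0.16 to 0.015, Sdha from −0.13 to 0.14 and Sdhb from −0.022 to 0.087. For complex III, Uqcrc1 ranged from −0.022 to 0.11, Uqcrh from −0.12 to 0.0039 and Uqcc1 from −0.26 to 0.084. For complexes IV and V, Cox6a1 ranged from −0.061 to 0.33, Cox6b1 from −0.18 to 0.18, Cox6b2 from −0.076 to 0.76, Cox7a2 from −0.00088 to 0.44, Cox7a2l from −0.074 to 0.12, Cox8a from −0.039 to 0.33 and Atp5a1 from −0.022 to 0.33. Among members, depth limits Cox6b2, whose mean was 4.40.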
